A study of Mus musculus with 2 samples.

Results

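The epithelial cells of the control organoid stroma were read from clusters 9 and 13 of the control library, the former marked by Krt18, Krt8 and Wfdc18 and the latter by Krt14 and Itga6. All rows of these clusters in the control table of cluster comparisons were taken, which gave 1354 genes for cluster 9 and 1341 for cluster 13 out of 10368 entries for 15 clusters. The series profiled single cells of organoids made with salivary gland stroma of CD-1 mice, an outbred stock, taken at embryonic day 16, and the age label adds 7 to that day without a unit. There was 1 control library, grown without FGF2, with 5023 cells captured, and 1 FGF2 library, named for a growth factor of fibroblasts, with 10107 cells captured. Both were made with the 10x Chromium 3' method, which marks the transcripts of a droplet with a barcode of their own. The sources used here do not give the dose of FGF2, the number of animals or the depth per cell. With 1 library per group and clusters formed from the same genes that are compared, no difference could be tested, and each value describes these cells only.

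The salivary gland forms from an epithelium that branches into ducts and acini within a mesenchyme. Ductal and luminal cells carry a filament network of the keratins Krt8 and Krt18, while basal cells carry Krt5 and Krt14 and anchor to the basement membrane through hemidesmosomes, which join keratin filaments to laminin by way of the integrin chains Itga6 and Itgb4. Wfdc18 and Wfdc2 are small secreted proteins with a whey acidic protein fold, Epcam is an adhesion protein of the epithelial surface, and Trp63 is a transcription factor of basal epithelial layers.

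For each listed gene the authors give 2 shares, the part of the cluster's cells in which it had a value and the same for all remaining cells of the library. They also give the log ratio of the 2 averages, printed here as a ratio of averages with 1 added to each, which understates the difference of a low gene. Listed genes had a log ratio of at least 0.25 in size (natural log), a larger share of at least 25.1% and an authors' p-value below 0.01. A gene that is not listed may therefore still be expressed. A gene found in few other cells could be listed only if its share in the cluster was large. For such genes the direction was largely set by this rule. The share over all listed genes, given beside counts below, is then not a like background. Members of the gene lists counted below were also chosen with earlier results of these data known. The listed shares were fitted by 1 set of cluster sizes, in which cluster 9 held 2.83% of the control cells and cluster 13 held 0.517%. If all captured cells were in the table, these parts came to 142 and 26 cells, so that 1 cell moved a share by 0.704 points in cluster 9 and by 3.85 points in cluster 13. Shares in cluster 13 are accordingly coarse.

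Keratins and luminal genes led cluster 9. Of 15 keratins in the list, 5 were listed for cluster 9 (Krt18, Krt8, Krt7, Krt17 and Krt14) and 6 for cluster 13, the same ones plus Krt5. Krt18 was found in 52.8% of the cells of cluster 9 and in 84.6% of those of cluster 13, against 2.8% and 3.8% of the respective other cells. Its partner Krt8 was found in 48.6% and 80.8%, against 2.5% and 3.4%. Both genes lie on chromosome 15 of the GRCm38 build, Krt18 at chr15:102028216-102032026 and Krt8 at chr15:101996711-102004342. In the authors' deposited table, Krt18 was 20.2-fold and Krt8 15.9-fold higher in cluster 9 than in its other cells, and 2.96-fold and 3.39-fold higher in cluster 13 than in its own. Cluster 13 thus had the larger share of cells with both keratins and cluster 9 the larger ratio. Krt7, a further keratin of ducts, was found in 48.6% and 69.2% of the cells of clusters 9 and 13, and Krt17, which basal cells and stressed epithelium carry, in 36.6% and 69.2%.

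Wfdc18 had the largest ratio of all genes listed for cluster 9, at 22.8-fold in the authors' deposited table, and it was found in 46.5% of these cells against 3.6% of the others. In cluster 13 it was found in 65.4% and was 8.31-fold higher in the authors' deposited table. Wfdc2 was found in 42.3% of the cells of cluster 9 and 88.5% of those of cluster 13. Tfcp2l1, a transcription factor of ductal epithelia, was found in 38.0% and 80.8%, against 1.4% and 2.0% of the other cells. Of 16 proteases and their inhibitors, Wfdc18 and Wfdc2 were at least 1.5-fold higher in cluster 9 and Prss23 and Cst3 lower. In cluster 13, 4 were higher, among them the inhibitor Spint2 (76.9% against 2.4%), and Prss23 was lower. Of all genes listed, 10.5% were at least 1.5-fold higher in cluster 9 and 25.5% lower, with 32.8% and 23.2% in cluster 13. Of 16 secreted defence proteins, Lcn2, a carrier of siderophores, was higher in cluster 13 (65.4% against 8.5%), and Saa3 was lower in cluster 9 (31.0% against 58.3%). No control cluster besides 9 and 13 listed Krt18, Krt8, Krt7, Krt14, Krt17, Wfdc18, Wfdc2, Tfcp2l1 or Fxyd3. The 100 bases before the start of the genes that led cluster 9 are given here from RefSeq (GRCm38.p6), 5′ to 3′ on the gene's strand, with matches to 4 motifs in capitals.
Krt18 (chr15:102028116-102028215, forward strand): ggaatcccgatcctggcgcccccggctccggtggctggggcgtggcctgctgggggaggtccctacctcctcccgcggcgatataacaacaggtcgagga
Krt8 (chr15:102004343-102004442, reverse strand): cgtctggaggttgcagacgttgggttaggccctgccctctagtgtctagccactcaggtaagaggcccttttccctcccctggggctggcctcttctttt
Wfdc18 (chr11:83708904-83709003, forward strand): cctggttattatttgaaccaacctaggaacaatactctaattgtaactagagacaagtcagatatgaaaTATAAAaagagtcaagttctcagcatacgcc
Both strands were searched. The motif of the core promoter box was spelled TATAAA, that of the grainyhead factors ACCGGT, that of the AP-1 dimer TGANTCA and that of the GC box GGGCGG. The upstream window of Wfdc18 held TATAAA at 31 to 26 bases before the start, and no match lay in the 100 bases of Krt18 or Krt8. Over the 250 bases before the start, TATAAA occurred in 13.0% of 27025 genes and in 12.7% of the 110 genes with a window that were higher in cluster 9. For ACCGGT the shares were 1.83% and 3.64%, for TGANTCA 6.87% and 2.73%, and for GGGCGG 32.9% and 65.5%. The 27025 genes were all those with a window, whether or not found in these cells, so they are not a like set for the listed genes. These matches describe letters and not binding.

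**Figure D1:**
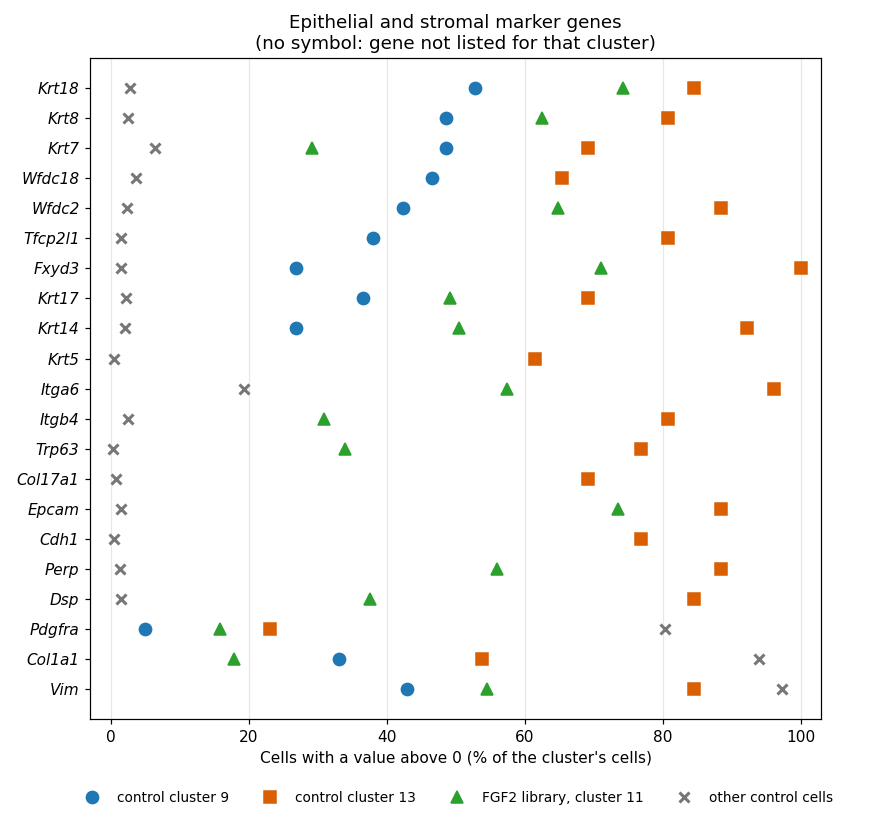
Share of cells with a value (horizontal axis, percent of the cluster's cells) for 21 epithelial and stromal genes in control cluster 9 (circles), control cluster 13 (squares), cluster 11 of the FGF2 library (triangles) and the control cells outside the cluster (crosses). Krt18 was found in 52.8%, 84.6% and 74.2% of the 3 clusters, and a gene without a symbol, such as Krt5 in cluster 9, was not listed there.

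Basal genes were broader in cluster 13. Of 15 genes of the basal list, 13 were listed for cluster 13, all with a higher average, and 12 of them were at least 1.5-fold higher, where 32.8% of all genes listed for this cluster were. The 13 had a median share of 2.2% in the other cells, so the listing rule largely set their direction. Krt14 was found in 92.3% of the cells against 2.2% elsewhere, and Krt5, its partner, in 61.5% against 0.5%. Trp63 was found in 76.9% against 0.3%. In the authors' deposited table, Krt14 was 9.69-fold, Krt5 5.44-fold and Trp63 3.19-fold higher. Igfbp5, a binding protein of insulin-like growth factors, had the largest ratio of all genes listed for cluster 13, at 21.1-fold in the authors' deposited table, with 80.8% of cells against 14.5%. Of the basal list, 2 genes were at least 1.5-fold higher in cluster 9, where 10.5% of listed genes were. These were Krt17 and Krt14, the latter found in 26.8% of its cells, and the linker Dst was lower, at 8.5% against 76.4%.

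Genes of the hemidesmosome and laminin chains were listed together in cluster 13. Itga6 was found in 96.2% of its cells, Itgb4 in 80.8% and Col17a1, a collagen that spans the membrane, in 69.2%, against 19.3%, 2.5% and 0.8% of other cells. The laminin chains Lama3 and Lamb3 were each found in 61.5%, against 0.4% and 0.3%. Of 11 genes of the hemidesmosome and integrin list, 6 were listed for cluster 13 and 5 were at least 1.5-fold higher, beside 32.8% of all genes listed for it. In cluster 9 2 were listed and none was higher, and Itgb1 was lower, at 20.4% of cells against 91.0%. Of 18 basement membrane genes, 10 were listed for cluster 13. Of these 10, 7 were at least 1.5-fold higher, beside the 32.8% of all genes listed for it, and 2 were lower (Nid1 and Sparc). Among the 7 were Lama3, Lama5, Lamb3, Col4a5, Col4a6 and Agrn. In cluster 9 none was that much higher and 6 were lower by 1.5-fold, where 25.5% of all listed genes were. Among the 6 were Col4a1 (14.8% against 84.5%) and Hspg2 (2.1% against 70.1%). Itga6 was also listed higher for control clusters 10 (91.4% of cells) and 14 (46.7%), so it was not limited to cluster 13. Nor were Agrn and Itgb4, listed higher for control cluster 10 too (89.7% and 34.5% of cells), or Lama5, listed higher for cluster 14 (33.3%).

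Pan-epithelial genes and cell junctions showed the same breadth in cluster 13. Of 18 pan-epithelial genes, 14 were listed for cluster 13, all in the higher direction and 12 at least 1.5-fold. For cluster 9, 4 were listed, all at least 1.5-fold higher. Of all genes listed, 32.8% for cluster 13 and 10.5% for cluster 9 were that much higher. The listed pan-epithelial genes had a median share in the other cells of 1.3% for cluster 13 and 2.65% for cluster 9. The listing rule thus largely set their direction, and these counts are no separate support for it. Fxyd3, a regulator of the sodium pump, was found in every cell of cluster 13 and in 26.8% of the cells of cluster 9. Epcam was found in 88.5% against 1.4%, and Cdh1, the cadherin of epithelial adherens junctions, in 76.9% against 0.5%, and both were listed for cluster 13 only. In the authors' deposited table, Epcam was 8.22-fold, Fxyd3 8.24-fold and Cdh1 2.60-fold higher in cluster 13. Of 16 genes of desmosomes and adherens junctions, 10 were at least 1.5-fold higher in cluster 13, among them Dsp, the plakin of desmosomes (84.6% against 1.4%), and Perp, a desmosomal membrane protein (88.5% against 1.3%). In cluster 9, the plakoglobin gene Jup and the alpha-catenin gene Ctnna1 passed 1.5-fold, in 14.1% and 23.2% of cells against 34.6% and 81.1%. Tight junction genes were few. Of 19, the claudins Cldn4 (38.5%), Cldn7 (34.6%) and Cldn8 (65.4%, against 0.1%) passed 1.5-fold in cluster 13, and none of the 19 was listed for cluster 9. The bases before the start of Krt5 (100) and Epcam (250) are shown because both genes were listed for cluster 13 and not for cluster 9. Epcam is printed at greater length than the other genes, which takes in ACCGGT matches that lie outside its last 100 bases.
Krt5 (chr15:101712906-101713005, reverse strand): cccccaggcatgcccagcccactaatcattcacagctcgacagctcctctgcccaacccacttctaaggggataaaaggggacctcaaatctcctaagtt
Epcam (chr17:87635729-87635978, forward strand): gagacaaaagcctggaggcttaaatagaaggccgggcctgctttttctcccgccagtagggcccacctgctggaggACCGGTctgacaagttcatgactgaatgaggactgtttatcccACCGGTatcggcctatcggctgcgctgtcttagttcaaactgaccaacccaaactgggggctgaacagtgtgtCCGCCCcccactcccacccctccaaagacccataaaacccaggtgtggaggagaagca
Epcam held the letters ACCGGT at 174 to 169 and at 131 to 126 bases before its start, and the GC box complement CCGCCC at 58 to 53 bases. The window of Krt5 held none of the 4 motifs, and neither did the 250 bases before the start of Fxyd3, which are not printed. Among the 323 genes with a window that were higher in cluster 13, ACCGGT occurred in 3.10%, TATAAA in 6.50%, TGANTCA in 4.33% and GGGCGG in 66.9%. Over all genes with a window, whether or not found in these cells, the shares were 1.83%, 13.0%, 6.87% and 32.9%, in the same order. The grainyhead factor Grhl2 was listed for cluster 13, in 34.6% of cells against 0.3%. A link between Grhl2 and genes with these letters was not tested.

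For genes listed only for cluster 13, the listed shares set an upper limit on the share in cluster 9, reached if all cells with the gene outside cluster 13 lay in cluster 9. The limit was 5.27% for Cldn8, 8.79% for Elf3, 12.3% for Trp63 and Lamb3, 15.8% for Lama3, Jag2, Dsg2 and Dsc2, and 19.3% for Cdh1 and Krt5. Trp63, Cdh1 and Krt5 were therefore less widely found in cluster 9 than in cluster 13 (76.9%, 76.9% and 61.5%). For Epcam the limit was 51.0%, also below its 88.5% in cluster 13. Of the 519 genes listed for both clusters, 506 also had the larger share in cluster 13. A smaller share in cluster 9 was thus not particular to basal or adhesion genes. Of the 336 genes at least 1.5-fold higher in cluster 13 and not listed for cluster 9, 59 had a limit below their share in cluster 13, and the remaining ones could not be placed in this way.

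Of 29 transcription factors, 17 were listed for cluster 13 and 14 were at least 1.5-fold higher, where 32.8% of all genes listed for this cluster were. Besides Trp63 and Tfcp2l1 these included Foxc1 (76.9% against 9.0%), Sox9, a factor of branching tips (73.1% against 22.8%), and the ETS factors Ehf (57.7% against 1.4%) and Elf3 (46.2% against 0.2%). Barx2, a homeobox factor, was also higher (53.8% against 0.7%). In cluster 9, 4 of the 29 were listed and Tfcp2l1 passed 1.5-fold, where 10.5% of all genes listed for this cluster did.

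Few receptors and signals were listed, and the counts that follow are set beside the 32.8% of all genes listed for cluster 13 and the 10.5% of those listed for cluster 9 that were at least 1.5-fold higher. Of 16 growth factor receptors, 5 were listed for cluster 13, and 4 of these 5 were at least 1.5-fold higher. They were Fgfr2, the receptor of mesenchymal FGFs in branching epithelium (65.4% against 9.2%), Egfr (53.8% against 41.7%), Igf1r (80.8% against 76.8%) and Bmpr1a (76.9% against 66.2%). In cluster 9, Igf1r was lower, at 5.6% against 78.9%, and no other receptor of the list was listed. Of 24 ligands, 5 were listed for cluster 13. Of these, Wnt4 (69.2% against 6.2%), Pdgfa (96.2% against 65.3%), the Notch ligand Jag2 (61.5% against 0.4%) and Fgf1 (53.8% against 4.6%) passed 1.5-fold. In cluster 9 Pdgfa and Tgfb2 passed it, found in 18.3% and 8.5% of cells against 66.9% and 28.9%. Pdgfa was also listed higher for control clusters 6, 10 and 12 (88.9%, 94.8% and 73.2% of cells), and Jag2 for cluster 14 (33.3%). Of 15 Notch and Wnt genes, 3 were listed for cluster 13 and all 3 passed 1.5-fold there: Sostdc1, a secreted BMP and Wnt antagonist (80.8% against 1.0%), Lgr4, a receptor of R-spondins (46.2% against 13.0%), and Hes1, a Notch target (73.1% against 44.9%). In cluster 9, Hes1 passed it as well (21.1% against 45.7%), and the Wnt antagonist Sfrp1 was lower (21.8% against 87.4%). Of 16 genes of ion and water transport, 4 were listed for cluster 13 and 3 passed 1.5-fold, and in cluster 9 Fxyd3 was higher and the glucose transporter Slc2a1 lower. Atp1b1, a chain of the sodium pump, was found in 84.6% of the cells of cluster 13 against 11.4%. Fst, an activin antagonist, was 7.85-fold higher there in the authors' deposited table and was found in 88.5% of cells against 13.5%. Control cluster 10 listed Fst as higher too, in 32.8% of its cells.

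Genes of differentiated acini and contractile cells were not listed as higher. None of the 14 acinar genes was listed for either cluster. Of 11 contractile genes that mark myoepithelium and myofibroblasts, 7 were listed for cluster 9, all lower. Of these, 4 were lower by 1.5-fold, where 25.5% of all genes listed for this cluster were. For cluster 13, 2 were listed, both lower by less than 1.5-fold. Acta2, the actin of smooth muscle, was found in 62.7% of the cells of cluster 9 against 90.7% of the others, and Myl9, a myosin light chain, in 12.7% against 73.9%.

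Stromal genes were lower in both clusters, and many were still found in a good part of the cells. Of 16 stromal genes, 15 were at least 1.5-fold lower in cluster 9, where 25.5% of listed genes were, and 15 in cluster 13, where 23.2% were. Col1a1 was found in 33.1% of the cells of cluster 9 and 53.8% of those of cluster 13, against 94.0% and 92.5%, and Col1a2 in 38.7% and 76.9%. Pdgfra, a receptor of fibroblasts, was found in 4.9% and 23.1%, against 80.4% and 78.6%. In the authors' deposited table, Col1a1 was 5.67-fold lower in cluster 9 and 7.49-fold lower in cluster 13, and Pdgfra was 2.09-fold and 2.83-fold lower. The exception was Postn, a matrix protein, which was 2.98-fold higher in cluster 13 in the authors' deposited table and found in 88.5% of its cells against 70.9%. Of 12 mesenchymal genes, 6 were at least 1.5-fold lower in cluster 9 and 8 in cluster 13, and none was higher. Vim, the filament protein of mesenchyme, was found in 43.0% and 84.6% of cells against 97.3% and 95.9%, and the mesenchymal factor Twist1 in 2.1% and 11.5% against 73.1% and 71.4%. Whether stromal transcripts in these clusters came from the cells themselves, from doublets or from free RNA was not tested.

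Markers of other cell types were nearly absent from the lists. None of the 14 leukocyte and 11 endothelial genes was listed for either cluster, and of 11 Schwann and glial genes only Sox10, which salivary epithelium also carries, was listed, in 30.8% of the cells of cluster 13. In control cluster 10 it was found in 94.8%. Of 14 proliferation genes, 2 were listed for each cluster, and Mki67 and Top2a were listed for neither. Hmgb2 was at least 1.5-fold higher in both, with a smaller share in cluster 9 (20.4% against 52.8%) and a larger one in cluster 13 (65.4% against 51.8%). The cell cycle kinase Cdk1 was lower in cluster 13 (3.8% against 30.0%), and Stmn1 was higher by less than 1.5-fold in cluster 9 (14.8% against 50.4%). Against their labels, cluster 9 had 4 of the 7 luminal markers and 2 of the 8 basal ones listed as higher. Cluster 13 had 7 of the 8 basal and also 6 of the 7 luminal ones. Of all genes listed, 510 of 1354 were higher in cluster 9 and 739 of 1341 in cluster 13. The markers include Krt18, Krt8, Wfdc18, Krt14 and Itga6, by which the clusters were marked, so these counts give no separate support to the labels. Each luminal marker listed for both was found in a larger share of cluster 13, so the luminal label of cluster 9 rests on the ratios and not on shares, and the clusters are called by number.

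**Figure D2:**
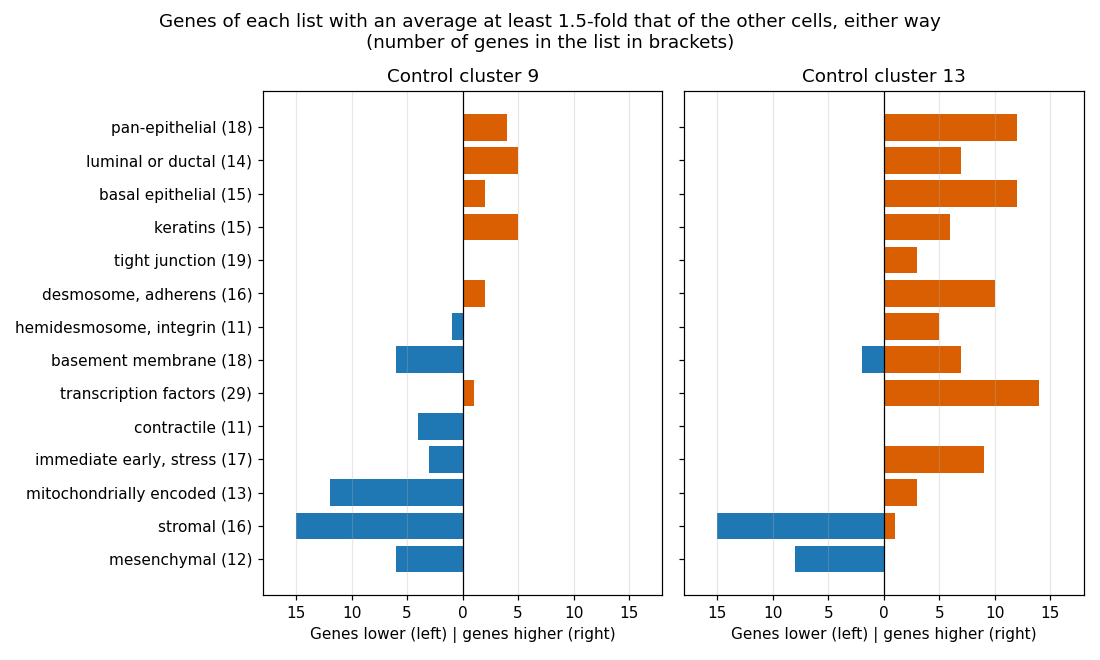
Number of genes per list (horizontal axis) with an average at least 1.5-fold lower (left of 0) or higher (right of 0) than in the other control cells, for cluster 9 and cluster 13, with the size of each list in brackets. Of 15 basal genes 2 were higher in cluster 9 and 12 in cluster 13, and of 13 mitochondrially encoded genes 12 were lower in cluster 9. Of all listed genes, 10.5% were higher in cluster 9 and 32.8% in cluster 13, and 25.5% were lower in cluster 9.

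Cluster 9 stood apart in how few of its cells had a value of most listed genes. The median share was 7.0% in cluster 9 against 67.7% in the other cells, and 50.0% in cluster 13 against 59.8%. Of the 510 genes with a higher average in cluster 9, 499 were found in a smaller share of its cells than of the others, and 10 in a larger share. These 10 were Krt18, Krt8, Krt7, Krt17, Krt14, Wfdc18, Wfdc2, Tfcp2l1, Fxyd3 and AY036118. Of the 739 genes with a higher average in cluster 13, 723 were found in a larger share of its cells. Control cluster 4 had a like pattern, with a median share of 10.9% against 84.8% and a smaller share for 98.3% of its genes with a higher average, where cluster 9 had 97.8%. Depth per cell was unknown, and its part in these shares was not tested. The 142 genes at least 1.5-fold higher in cluster 9 became 10 when a larger share of cells was also required, and the 440 in cluster 13 became 434.

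**Figure D3:**
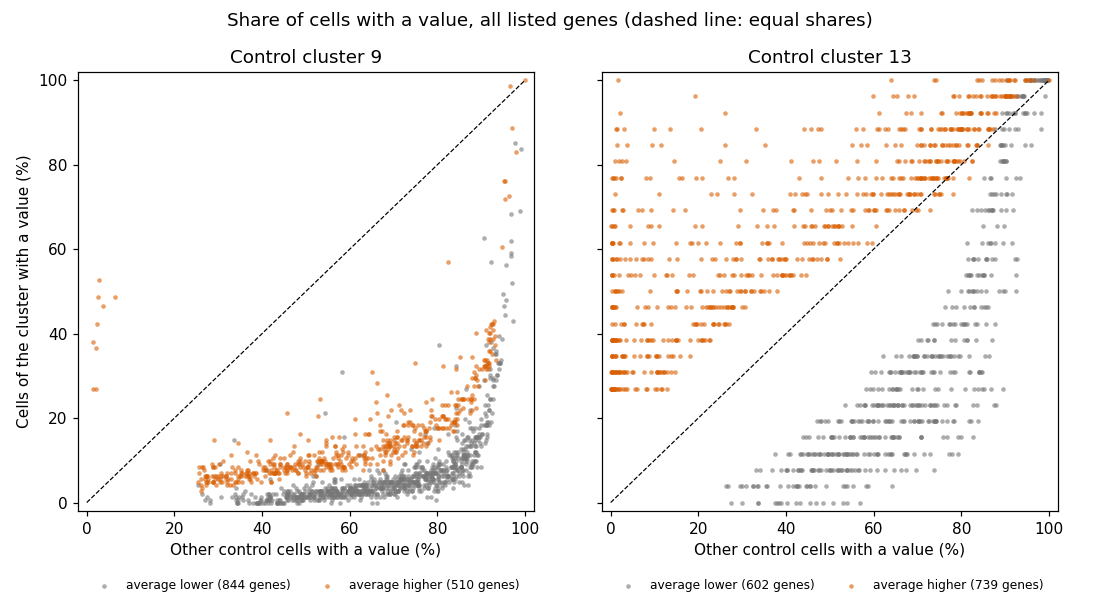
Each point is a gene listed for control cluster 9 (left) or 13 (right), placed by its share in the other control cells (horizontal, percent) and in the cluster (vertical, percent), and coloured by whether its average was higher or lower. In cluster 9 nearly all of the 510 genes with a higher average lie below the line of equal shares, apart from the 9 epithelial genes at the left, and in cluster 13 723 of 739 lie above it.

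Loci linked to ribosomal RNA were also among the 15 genes with the largest ratios in cluster 9, above Krt14 and Fxyd3. AY036118, Gm42418 and Gm26917, loci whose reads can stem from ribosomal RNA, were 8.18-fold, 6.54-fold and 6.79-fold higher in cluster 9 in the authors' deposited table, and AY036118 was found in 98.6% of its cells against 96.6%. Lars2, a mitochondrial leucyl-tRNA synthetase, was 5.0-fold higher in the authors' deposited table, with 57.0% of cells against 82.4%. Gm42418 was 1.86-fold higher in cluster 13 too, and AY036118 1.29-fold lower, in the authors' deposited table. Mitochondrially encoded genes were low in cluster 9. Of 13, 12 were at least 1.5-fold lower there, with a median share of 28.2% against 92.9%. Of all genes listed for cluster 9, 25.5% were that much lower. None of the 13 was lower in cluster 13, where 9 were listed higher and 3 passed 1.5-fold, beside 32.8% of all its listed genes. Control cluster 4 shared much of this pattern. On the log2 scale of the authors' deposited table, AY036118 was 3.08 higher there and 3.03 higher in cluster 9, Gm42418 2.09 and 2.71, and Gm26917 2.01 and 2.76. The log2 ratio of mt-Nd1 was -1.52 in cluster 4 and -1.61 in cluster 9 in the authors' deposited table, and that of mt-Co1 was -1.36 and -1.31. Malat1, a nuclear RNA, was found in 85.2% of the cells of cluster 9 against 97.7% and was 3.13-fold lower in the authors' deposited table. The part of RNA quality in these values was not tested.

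Clusters 13 and 9 were then compared with each other. Of 2176 genes listed for either, 519 were listed for both, and their ratio of averages was worked out from both log ratios and the cluster sizes. Of these, 66 (12.7%) were at least 1.5-fold higher in cluster 13 and 39 (7.51%) in cluster 9. The share of cells was larger in cluster 13 for 506 of the 519 and in cluster 9 for 9, with medians of 38.5% and 7.0%, so the shares pointed to cluster 13 for nearly every gene and the averages to either side. Of the 39 genes at least 1.5-fold higher in cluster 9 by average, 2 had a larger share there.

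Keratins were split between the clusters by this ratio. Krt18 was 4.46-fold, Krt8 3.34-fold, Krt17 2.44-fold and Krt7 2.22-fold higher in cluster 9, although each was found in a larger share of cluster 13. Krt14 was 1.71-fold higher in cluster 13. Of the secreted proteins, Wfdc18 was 1.76-fold higher in cluster 9 and Wfdc2 1.31-fold. Tfcp2l1 was close to equal, at 1.01-fold, and Fxyd3 was 2.0-fold higher in cluster 13. Of the 5 luminal genes listed for both clusters, 4 were thus at least 1.5-fold higher in cluster 9. Of all genes listed for both, 7.51% were. Krt18, Krt8 and Wfdc18 are also the genes by which cluster 9 was marked, so the count gives no separate support to its label. Krt17 of the basal list went the same way.

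Of the 12 genes with the largest ratio toward cluster 13, Fos and Egr1 came first and 7 were mitochondrially encoded. Fos, a subunit of AP-1, was found in 4.2% of the cells of cluster 9 and 88.5% of those of cluster 13 and was 6.93-fold higher in the latter. Egr1, a zinc finger factor induced within minutes of stimulation, was found in 9.2% and 92.3% and was 5.62-fold higher. Of 17 immediate early and stress genes, 9 were at least 1.5-fold higher in cluster 13 than in its other cells. Among them were Jun, Fosb, Junb, Ier2 and Btg2. In cluster 9, 3 (Fos, Fosb and Egr1) were that much lower. Of all listed genes, 32.8% were that much higher in cluster 13 and 25.5% that much lower in cluster 9. All 8 mitochondrially encoded genes listed for both were higher in cluster 13, by 3.15-fold (mt-Nd5) to 4.24-fold (mt-Nd1). Kcnq1ot1, a long non-coding RNA of an imprinted locus, was 4.68-fold higher, the zinc finger factor Zbtb20 4.27-fold and the serine protease Htra1 3.26-fold.

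Toward cluster 9, the largest ratio was that of AY036118 (8.74-fold), followed by Krt18, Krt8 and Gm42418 (3.06-fold). The others of the first 12 included genes of the extracellular matrix. Mmp3, a matrix protease, was 2.97-fold, Lgals1, a galectin, 2.91-fold, Col3a1, a fibrillar collagen, 2.71-fold, Spp1, the matrix protein osteopontin, 2.68-fold and Thbs1 2.54-fold higher in cluster 9 than in cluster 13. All 5 were lower in both clusters than in the remaining cells. Col3a1 was found in 39.4% and 50.0% of the cells of clusters 9 and 13. Plac8 (17.6% and 11.5%) was one of the 9 genes with a larger share in cluster 9.

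**Figure D4:**
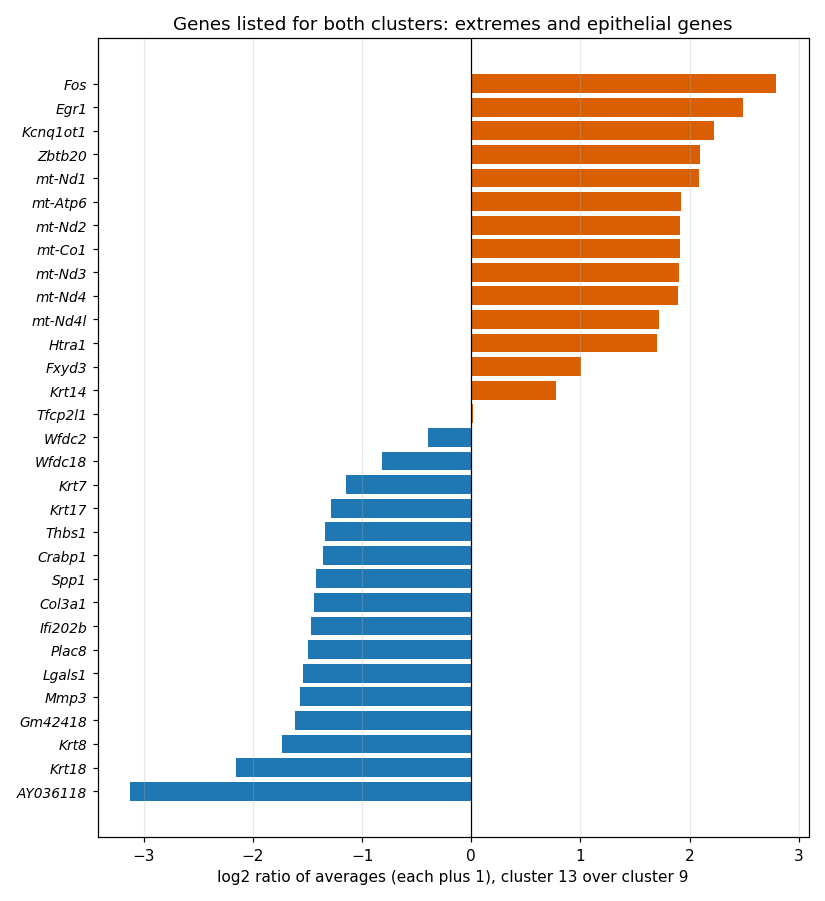
Log2 ratio of averages (1 added to each) in control cluster 13 over cluster 9 for the 12 genes with the largest ratio each way and for epithelial genes listed for both. Bars to the right (Fos, Egr1 and mitochondrial genes) are higher in cluster 13, and bars to the left (AY036118, Krt18 and Krt8) are higher in cluster 9.

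Epithelial genes were also found outside the clusters. Krt18 was found in 4.22% of all control cells. Of these cells 35.4% lay in cluster 9, 10.4% in cluster 13 and 54.2% in the other clusters, where 2.36% of cells had a value. For Tfcp2l1, 61.7% of the cells with a value lay in clusters 9 and 13 together, for Fxyd3 57.6%, for Krt14 46.0% and for Wfdc18 34.4%. Krt7 was the most widely spread of the 9, with 22.9% in the 2 clusters. For genes listed only for cluster 13 the cluster's own part was as large as 77.3% of the cells with a value for Cldn8, 57.1% for Trp63 and 54.5% for Elf3, though the cluster held 0.517% of the cells. What these outside cells were was not tested.

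**Figure D5:**
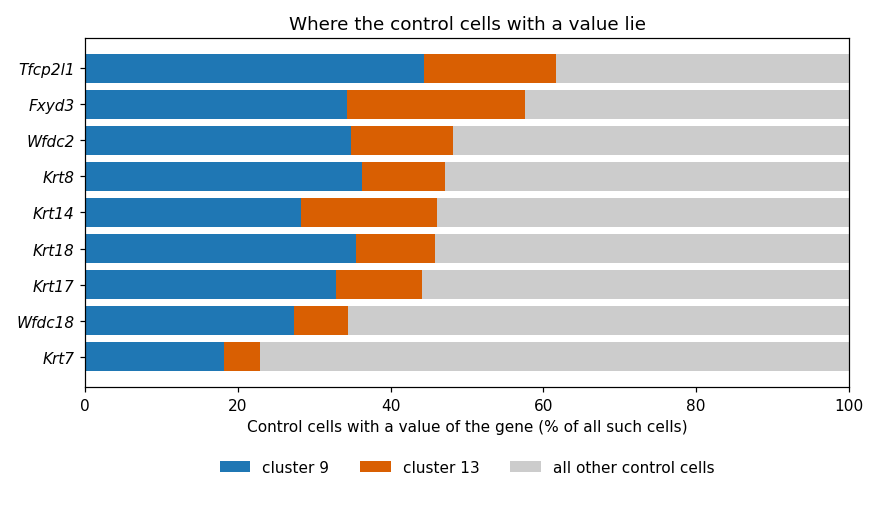
For each of 9 epithelial genes, the control cells with a value divided into those of cluster 9, cluster 13 and all other clusters (horizontal axis, percent of all cells with a value). The 2 clusters held from 22.9% (Krt7) to 61.7% (Tfcp2l1) of them.

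In the FGF2 library, cluster 11 had the most pan-epithelial genes listed as higher, 10 of 18, and held 2.88% of the cells (291 if all captured cells were in the table), against 3.35% (168) for clusters 9 and 13 together. The tables were made separately, so the comparisons are set side by side and no difference between libraries was tested. Krt18 was found in 74.2% of the cells of the FGF2 cluster against 11.5% of the other FGF2 cells, Krt8 in 62.5%, Fxyd3 in 71.1%, Epcam in 73.5% and Krt14 in 50.5%. For Krt18, Krt8, Fxyd3 and Krt14 the share lay between those of clusters 9 and 13, and Epcam was not listed for cluster 9. Of 166 genes at least 1.5-fold higher in the FGF2 cluster (22.0% of the 753 listed), 108 were also higher in cluster 13, which is 65.1% of the FGF2 list and 24.5% of the 440. With cluster 9 the overlap was 25 genes, 15.1% of the FGF2 list and 17.6% of the 142. Among genes lower by 1.5-fold in the FGF2 cluster (228, or 30.3%), 116 were also lower in cluster 13 and 106 in cluster 9.

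Several genes were listed on 1 side only. Chil1, a secreted chitinase-like protein, had the largest ratio in the FGF2 cluster, at 28.7-fold in the authors' deposited table, with 64.9% of cells against 15.7%, and Aqp5, the water channel of acini, was found in 37.1% against 8.9%. Neither was listed for any control cluster. Wfdc18, Tfcp2l1, Krt5, Cdh1 and Fgfr2 were listed for control clusters and for none of the 17 clusters of the FGF2 table. Of the 11 contractile genes, 5 were at least 1.5-fold higher in the FGF2 cluster, beside 22.0% of all genes listed for it. None was in cluster 9 or 13. Acta2 was found in 70.1% of the cells of the FGF2 cluster against 30.8% and Tagln in 69.4% against 38.3%. In the control library 90.7% of the cells outside cluster 9 had a value of Acta2, so the other cells differed between the comparisons. The authors' table of both libraries after integration listed 14 of the 18 pan-epithelial genes as higher in its cluster 9, in batch-integrated values that are not expression. It also listed Wfdc18 (30.3% of cells), Krt5 (27.5%) and Cdh1 (29.5%) as higher there, but not Tfcp2l1 or Fgfr2. These shares pool both libraries, so a gene listed on 1 side only may still be expressed on the other.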

How the data were processed

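Single cells of 1 control and 1 FGF2 library were analysed from the authors' deposited tables of cluster comparisons. The submitters' processing notes name the tool Cell Ranger, version 4.0, and the genome build mm10. The sources used here do not state the filters on cells, doublet treatment, normalization, clustering or test. Per the file headers, each row holds the log ratio of averages in the cluster over all other cells, the 2 shares of cells, deposited as fractions and printed as percent, and p-values of the authors, which treat cells as replicates and are not printed. The deposited log ratio was read as a natural log with 1 added to the averages: genes at 0 in several clusters gave a median coefficient of variation of 0.00169% with it and 0.0488% with base 2 (8 genes). Results are also written as log2. The integrated table's shares in other cells (1 column of values) were not used.

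Cluster sizes were fitted by least squares on 2077 genes listed in at least 2 control clusters (root mean square residual 0.0238 points, sum of parts 100.04%). From them followed the ratio of clusters 13 and 9 and each gene's spread over clusters. Tested on simulated tables of 4419 genes, cluster sizes were recovered within 0.00593 points, shares over the library within 0.0499 points and log2 ratios within 0.000277, and 30 of 30 genes set 4-fold apart were called. This checks the arithmetic and not sampling. A gene was counted as higher or lower at 1.5-fold. Genes to name were drawn from the 15 highest and 8 lowest genes by ratio in each cluster, the 12 largest each way between them, the 10 highest of the FGF2 cluster, and listed members of 26 lists (353 genes). Members and lists were chosen with earlier results of these data known. Alternatives were a 2-fold rule, shares in place of averages, the authors' adjusted p under 0.05, base 2, the plain difference of log ratios, and other genes in the fit. Python 3.11.15, numpy 2.4.6, pandas 2.3.3 and matplotlib 3.10.9 were used. Sequences and gene positions came from RefSeq (GRCm38.p6). Some listed genes are not reported here.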

Additional observations from a re-analysis of the deposited data

Results flagged for a closer look

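For 8 genes of the lists the FGF2 epithelial cluster and a control cluster went opposite ways against their own other cells by at least 1.5-fold. With 1 library each, these differences were not tested, and the other cells differ between the libraries. The values are log2 ratios of averages in the FGF2 cluster minus those in the control cluster. In contractile genes, cluster 9 was lower and the FGF2 cluster higher, with a difference of 3.42 for Acta2, 3.09 for Tagln, 2.89 for Myl9 and 2.02 for Mylk, a kinase of myosin light chain. The same held for the secreted Wnt antagonist Sfrp1 (2.23), the basement membrane collagen Col4a1 (1.85) and Fos (1.70). Neat1, a nuclear RNA, was higher in cluster 13 and lower in the FGF2 cluster, a difference of -1.34.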

How the results depend on the processing

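Of 30 alternatives, 12 stayed within 1.5 times the count or near the cluster size and 18 did not. With a 2-fold rule, the genes higher and lower numbered 29 and 99 in cluster 9 and 146 and 117 in cluster 13. Between the clusters 43 were then higher in cluster 13 and 18 in cluster 9, and the FGF2 cluster shared 12 with cluster 9 and 48 with cluster 13. With shares in place of averages, 9 were higher and 1331 lower in cluster 9, 477 were lower in cluster 13, 485 were higher in cluster 13 than in cluster 9 and 7 the reverse, and cluster 9 shared 7 with the FGF2 cluster. Entries with an adjusted p of the authors under 0.05 left 263 higher and 141 lower in cluster 13. Read as base 2, 22 genes were higher in cluster 9 than in cluster 13. Requiring also a larger share, an alternative chosen after seeing the data, left 10 genes higher in cluster 9. The size of cluster 9 stayed at 2.83% of cells and that of cluster 13 ranged from 0.517% to 0.519%. No paired analysis was possible because each group has 1 library, and for the same reason no library could be left out. Depth per cell was unknown, and with about 26 cells in cluster 13 its shares are the least precise.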

Other observations

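Some further genes were found in a large part of cluster 13 and in few other control cells. They were chosen after their values were seen, so they carry no test. Ucma, a secreted protein known from cartilage, was found in 57.7% of the cells of cluster 13 against 0.3%, and Col9a3, a collagen chain also known from cartilage, in 76.9% against 0.8%. Mia, a small secreted protein, was found in 69.2% against 0.4%. Nrtn, the neurotrophic ligand neurturin, was found in 57.7% against 5.7%, and Cbr2, a carbonyl reductase, in 76.9% against 1.3%. In the FGF2 cluster Col9a3 was found in 34.4% of cells, Mia in 30.2% and Nrtn in 44.0%, while Ucma and Cbr2 were listed for no FGF2 cluster. Of the 440 genes at least 1.5-fold higher in cluster 13, 58 were found in at least 50% of its cells and in under 5% of the other control cells.

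A set of 22 genes was at least 1.5-fold higher in clusters 9 and 13 and in the FGF2 cluster. Besides Krt7, Krt8, Krt14, Krt17, Krt18, Wfdc2, Fxyd3, Jup and Hes1, it held the transcription factors Meis2, Nfib and Runx1, the growth factor Pdgfa and the matrix protein Smoc2. It also held Gm42418 and H3f3b, so it was not made of epithelial genes alone. Runx1 was found in 23.9%, 96.2% and 56.0% of the cells of clusters 9, 13 and the FGF2 cluster, and Vamp8, a vesicle fusion protein, in 25.4%, 88.5% and 54.6%. Neither was among the 10 genes with a larger share in cluster 9 than in its other cells. Cluster 9 had smaller shares than its other cells for Meis2 (21.8% against 69.4%), Nfib (34.5% against 85.2%), Pdgfa (18.3% against 66.9%) and Smoc2 (8.5% against 25.7%). For all 22 the share in cluster 9 was no larger than in cluster 13.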
